A study of Oryzias latipes with 8 samples.

Results

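Complex I (NADH:ubiquinone oxidoreductase) has 7 subunits that vertebrates encode in mitochondrial DNA (mtDNA), and the 7 rows of the count table that stand for these genes, of 18064 rows in all, were examined in axial tissue of medaka (*Oryzias latipes*) larvae. Embryos of both groups came from the inbred Orange-red Hd-dR strain. In the DMSO group (4 libraries) embryos were kept in 0.1% DMSO, the solvent, and in the TPhP group (4 libraries) in 1.0 µM triphenyl phosphate dissolved in DMSO, an organophosphate flame retardant and plasticizer. Both exposures began between 4 and 6 hours post fertilization and lasted until 14 days post fertilization, when axial tissue was freed of head and abdomen and 15 to 20 larvae were pooled for each RNA sample. Since each library was a pool, the spread given here is that between pools and not between larvae. Messenger RNA was captured by its poly(A) tail, and the deposited values are the numbers of uniquely mapped reads on each gene.

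The members were chosen by their Ensembl identifiers. The study's supplementary table pairs 3 of them with names, *nd1* (ENSORLG00000021753), *nd2* (ENSORLG00000021757) and *nd3* (ENSORLG00000021772), and lists these 3 as lowered in this experiment, so that their direction here is not independent of how they came to be named. No source used here pairs the other 4 identifiers with a name. They are called after the place that they hold when the block of mtDNA identifiers is read in the vertebrate gene order, namely the *nd4l* place (ENSORLG00000021774), the *nd4* place (ENSORLG00000021775), the *nd5* place (ENSORLG00000021779) and the *nd6* place (ENSORLG00000021780). In that reading all 7 names that the study pairs within the block fell at their own place. *Nd1*, *nd2*, *cox2* and *atp6* had served to set this order, so their fit was given in advance. All 7 names lie at or before *nd3*, so none of them tests the stretch that holds the other 4 rows. Of the 37 places, 22 belong to transfer RNAs, and the highest count in any transfer RNA place was 41 in any library. All 15 places of ribosomal RNAs and proteins had over 50 counts in every DMSO library. The assignment of the 4 rows is an inference from this order.

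Complex I is the entry point of the respiratory chain. It takes electrons from NADH, passes them to ubiquinone and pumps protons across the inner mitochondrial membrane, and its mtDNA-encoded subunits all lie in the membrane arm. Vertebrate mtDNA is transcribed into long precursors that cover many genes, which are cut apart mostly at the transfer RNAs that lie between the coding genes. All of its complex I genes are read from the heavy-strand promoter except *nd6*, the only protein gene of the opposite strand. In the RefSeq annotation of ASM223467v1, matched by name, the gene *nd1* spans bases 2832 to 3806 of the mitochondrial sequence, *nd2* bases 4017 to 5067, *nd3* bases 9626 to 9974, *nd4l* bases 10044 to 10340, *nd4* bases 10334 to 11714, *nd5* bases 11932 to 13770 and *nd6* bases 13766 to 14287. The reading frames of *nd4l* and *nd4* overlap by 7 bases, and those of *nd5* and *nd6*, on opposite strands, by 5 bases. Reads across an overlap could have been counted for neither gene. The sources used here do not give the strand setting used for counting, so that sense and antisense reads cannot be told apart at the *nd6* place or at any other member.

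Total counts were between 46561277 and 51501685 per library. Levels are given as CPM, the count of a gene scaled to the library size (edgeR's cpm function) after correction by edgeR's TMM factors, which did not overlap between the groups (0.847 to 1.00 with DMSO and 1.02 to 1.21 with TPhP). Among all libraries, TPhP replicate 1 stood apart from the rest of its group, at −33.8 on the first principal component against 29.8 to 62.2 for TPhP replicates 2 to 4 and −37.3 to −20.0 for the DMSO libraries. Calls are therefore also given without TPhP replicate 1, as a description. For the tissue label, 7 skeletal genes of the study's primer table were read (*col1a*, *col2a1*, *col10a1*, *runx2*, *sp7*, *sox9a* and *twist1*). All 7 were detected in every library, with a lowest level of 3.42 CPM and summed levels of 699 to 1853 CPM with DMSO and 1194 to 3348 CPM with TPhP. Among them, *runx2* and *col2a1* were higher in every TPhP library than in every DMSO library. Neither was called (adjusted p = 0.240 and 0.164 in edgeR's quasi-likelihood test), and the share of all genes higher in this way is not given here. No marker genes of other tissues were read, so detection of these 7 does not set skeletal tissue apart from other tissues. How far the makeup of the tissue bears on the values below was not tested, and in bulk tissue fewer cells of a type and less RNA per cell cannot be told apart.

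The 7 genes parted into 2 sets. *Nd1*, *nd2* and *nd3* were lower in every TPhP library than in every DMSO library, and in TPhP replicates 2 to 4 they were nearly absent from the counts. The *nd4l*, *nd4*, *nd5* and *nd6* places differed far less, with log2 fold changes of −0.48 to −0.25. With library sizes alone, none of TPhP replicates 2 to 4 was below the DMSO range in these genes. With TMM scaling, 3 of the 4 TPhP libraries were still below every DMSO library in each of them. TPhP replicate 4 then lay within the DMSO range, so the groups overlapped through that library. The share of all genes with 3 of the 4 TPhP libraries below was not computed. Over all tested genes, 3.57% had every TPhP library below every DMSO library, against 3 of the 7 members. *Nd3* counts there as a description, since it needed the DMSO libraries to pass the filter on low counts. Only 8 of the 15893 tested genes (0.0503%) had 3 or more TPhP libraries below 10% of the lowest DMSO library, a description set after the values were seen. All 8 lay in the mtDNA block, and *nd1*, *nd2* and *nd3* were among them.

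**Figure D1:**
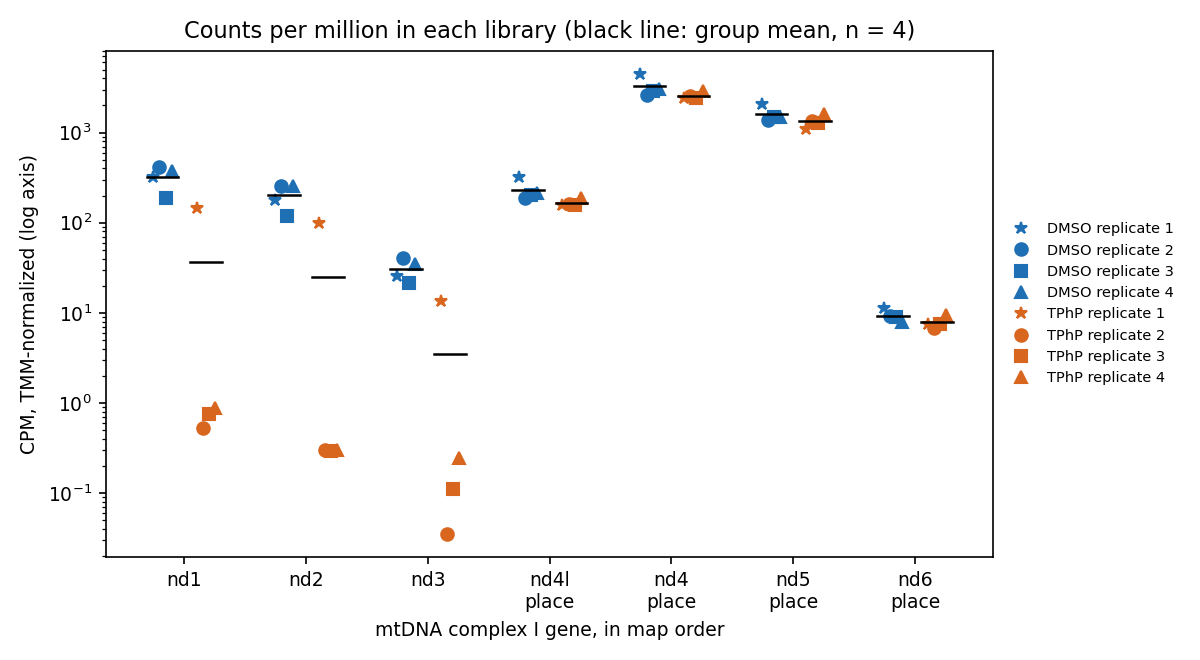
TMM-normalized CPM (log axis) of the 7 mtDNA complex I genes in each of the 4 DMSO and 4 TPhP libraries, with black lines for group means. *Nd1*, *nd2* and *nd3* show 1 TPhP library (replicate 1, star) just under the DMSO libraries and the other TPhP libraries below 1 CPM, whereas the points of the 4 other genes lie close together.

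*Nd1* encodes the subunit at the junction of the peripheral and membrane arms, next to the ubiquinone site. Its counts in DMSO replicates 1 to 4 were 13099, 18447, 8368 and 18840, and in TPhP replicates 1 to 4 they were 7522, 30, 41 and 47. As CPM these were 318, 415, 186 and 375 with DMSO, and 146, 0.531, 0.753 and 0.880 with TPhP. The groups did not overlap, and TPhP replicate 1 was 166 times the highest of the other TPhP libraries. Mean *nd1* expression was 323 ± 99.8 CPM in DMSO libraries and 37.1 ± 72.7 CPM in TPhP libraries (SD, n = 4 each). The SD with TPhP exceeded its mean, and the log2 fold change of −3.13 (standard error 1.63, 95% interval −6.78 to 0.53) did not pass edgeR's quasi-likelihood test (Benjamini-Hochberg adjusted p = 0.376 over all tested genes).

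*Nd2* encodes one of the antiporter-like subunits of the membrane arm. It had 7282, 11282, 5352 and 12704 counts in DMSO replicates 1 to 4, and 5085, 17, 16 and 16 counts in TPhP replicates 1 to 4. The corresponding levels were 177, 254, 119 and 253 CPM with DMSO, and 98.7, 0.301, 0.294 and 0.299 CPM with TPhP. TPhP replicates 2 to 4 were thus almost equal to each other, and the lowest DMSO library was 396 times the highest of them. The *nd2* log2 fold change was −3.01 (standard error 1.69, 95% interval −6.80 to 0.78, edgeR adjusted p = 0.409), with means of 201 ± 65.2 CPM (SD, n = 4) and 24.9 ± 49.2 CPM (SD, n = 4).

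*Nd3* encodes a small subunit with a loop close to the ubiquinone site. Its DMSO libraries had 1053, 1815, 962 and 1769 counts, and its TPhP libraries 692, 2, 6 and 13. In CPM *nd3* was at 25.5, 40.8, 21.4 and 35.2 with DMSO, and at 13.4, 0.0354, 0.110 and 0.243 with TPhP. TPhP replicate 2, with 2 counts, has an exact Poisson interval of 0.242 to 7.22 counts, which covers counting error only. Means were 30.7 ± 8.86 CPM under DMSO and 3.46 ± 6.65 CPM under TPhP (SD, n = 4 each), at a log2 fold change of −3.16 (standard error 1.34, 95% interval −6.15 to −0.16, edgeR adjusted p = 0.285). The DMSO libraries were enough for *nd3* to pass the filter on low counts, and TPhP replicates 2 and 3 were under 10 counts. The TPhP libraries would not have been enough. A difference was thus built into its being tested, and its p-values with all libraries are descriptions.

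For each of *nd1*, *nd2* and *nd3* the two-sided exact permutation test on log2 CPM over the 70 labelled splits gave p = 0.0286, and no split of 4 and 4 libraries can give less. For *nd3* this p is a description, given how it passed the filter. The mean log2 CPM (prior count 2) differed by −6.79 for *nd1*, −7.10 for *nd2* and −6.03 for *nd3*. edgeR's fold changes were smaller than these differences. They compare mean abundance, and TPhP replicate 1 made up 98.5%, 99.1% and 97.2% of the summed TPhP level of *nd1*, *nd2* and *nd3*. Without TPhP replicate 1, edgeR gave *nd1* a log2 fold change of −8.81 (95% interval −9.73 to −7.89, adjusted p = 3.27e-05), *nd2* −9.38 (−10.3 to −8.50, adjusted p = 2.76e-05) and *nd3* −7.88 (−8.97 to −6.79, adjusted p = 0.000154). *Nd3*, with 2, 6 and 13 counts in the 3 TPhP libraries left, needed the DMSO libraries to pass the filter on low counts in that fit. A difference was thus built into its passing, and its call is a description. All 3 then met the study's criteria (adjusted p under 0.05, over 1.5-fold), as did 4.81% of all tested genes in the lower direction. DESeq2 without that library also called these 3 members lower, with 6.45% of all tested genes. TPhP replicate 1 was singled out after it was seen to lie near the DMSO libraries in these same data. The calls and p-values without it, for *nd1* and *nd2* also, are therefore descriptions and not a test of the exposure.

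The *nd4l* place belongs to a small membrane subunit that borders the proton path. It had 324, 187, 202 and 213 CPM in DMSO replicates 1 to 4, and 157, 160, 157 and 188 CPM in TPhP replicates 1 to 4. The groups touched at a single point, where TPhP replicate 4 (187.523 CPM) was level with DMSO replicate 2 (187.485 CPM), and under DESeq2's RLE factors they did not overlap (4 of 7 members then, against 3.49% of all tested genes). The number of members apart also turned on single libraries, at 4 of 7 without DMSO replicate 2 (5.17% of all tested genes) and 7 of 7 without TPhP replicate 4 (4.83%). *Nd3* is in each of these counts as a description, since it needed the DMSO libraries to pass the filter on low counts. The log2 fold change at the *nd4l* place was −0.48 (standard error 0.19, 95% interval −0.91 to −0.06), with an unadjusted p of 0.0300 and an adjusted p of 0.255 in edgeR's test. The two-sided exact permutation test gave p = 0.0571.

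The *nd4* and *nd5* places belong to the large antiporter-like subunits toward the far end of the membrane arm, and they had the highest counts of the 7 genes. At the *nd4* place the DMSO libraries had 4493, 2581, 2863 and 3063 CPM and the TPhP libraries 2435, 2537, 2416 and 2919 CPM. At the *nd5* place these were 2072, 1390, 1476 and 1482 CPM with DMSO, and 1104, 1329, 1277 and 1603 CPM with TPhP. In both genes DMSO replicate 1 was the highest library, and TPhP replicate 4 lay within the DMSO range. With library sizes alone TPhP replicates 2 and 3 also lay within it, and with TMM scaling 3 of the 4 TPhP libraries were below every DMSO library. The log2 fold changes were −0.33 (95% interval −0.75 to 0.08) and −0.27 (95% interval −0.67 to 0.12), with edgeR adjusted p-values of 0.398 and 0.467.

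The *nd6* place, on the light strand, belongs to a membrane subunit beside the proton path and had the lowest level of the 7 genes with DMSO. In human mitochondria the *nd6* mRNA largely lacks a poly(A) tail, and how that bears on these poly(A)-selected libraries was not tested. Its counts were 465, 408, 400 and 403 with DMSO and 385, 388, 411 and 504 with TPhP, or 11.3, 9.18, 8.91 and 8.01 CPM against 7.48, 6.86, 7.55 and 9.43 CPM. With library sizes alone only TPhP replicate 1 was below every DMSO library. With TMM scaling TPhP replicate 4 lay above DMSO replicates 2 to 4, and the other TPhP libraries were below every DMSO library. The log2 fold change of −0.25 (95% interval −0.61 to 0.10, edgeR adjusted p = 0.450) did not pass edgeR's test. Mean log2 CPM differed by −0.25, beside an SD of 0.21 with DMSO and 0.19 with TPhP (n = 4 each). Without TPhP replicate 1 the 4 genes from the *nd4l* place on had log2 fold changes of −0.46, −0.31, −0.20 and −0.24 in map order, with edgeR adjusted p-values of 0.170 to 0.502.

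**Figure D2:**
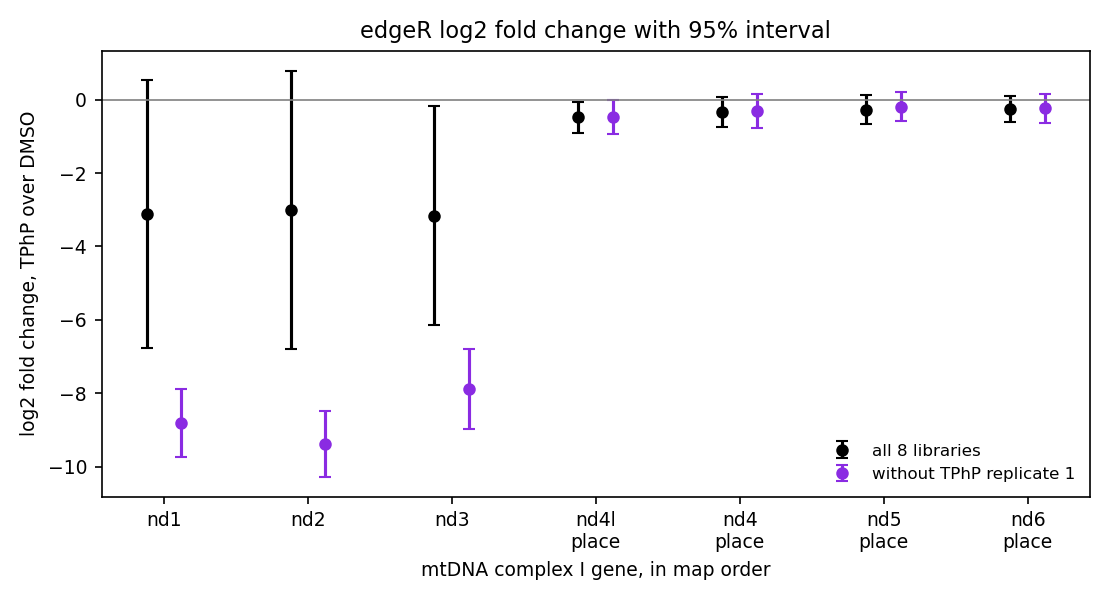
edgeR log2 fold change of TPhP over DMSO with its 95% interval for each of the 7 genes, from all 8 libraries (black) and without TPhP replicate 1 (purple). The intervals of *nd1* and *nd2* reach across 0 with all libraries and lie at or below −7.89 without that library, while those of the other 4 genes stay within 1 log2 unit of 0 in both fits.

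With all 8 libraries, edgeR called 0 of the 7 members and 0% of 15893 tested genes, against 2582 genes at an unadjusted p under 0.05, and DESeq2 called 0 of the 7 members and 3.82% of all genes. At an unadjusted p under 0.05 edgeR gave 2 of the 7 members (*nd3* and the *nd4l* place), both lower, where 6.93% of all tested genes were lower at that p. *Nd3* needed its DMSO libraries to be tested at all, so its place in that count is a description. The median log2 fold change was −0.48 over the 7 members and 0.02 over all tested genes. The scaling mattered for the small differences. With library sizes alone the median over all genes moved to 0.30, and the log2 fold changes became −0.19 at the *nd4l* place, −0.04 at the *nd4* place, 0.02 at the *nd5* place and 0.03 at the *nd6* place, so that the direction of the last 2 turned. *Nd1*, *nd2* and *nd3* stayed between −2.99 and −2.85 under that scaling.

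Ratios of the counts of 2 genes within a library do not depend on the scaling, and they were used to ask whether the members differed from each other. Among the 21 pairs, the log2 ratio did not overlap between the groups in 7. The share of all gene pairs without overlap was not computed, so the counts of pairs describe the members only. For the 12 pairs that set *nd1*, *nd2* or *nd3* against a gene from the *nd4l* place onward, the difference in mean log2 ratio between TPhP and DMSO ran from −6.95 to −5.89. The groups did not overlap in 6 of these 12, where the two-sided exact permutation test gave p = 0.0286 (0.0857 after adjustment over the 21 pairs). Pairs with *nd3* are descriptions, given how it passed the filter on low counts, and the sets were drawn from these same values. Some margins were small, as for *nd2* over the *nd6* place, with a log2 ratio of 3.72 in TPhP replicate 1 and 3.74 in DMSO replicate 3. In the other 6 TPhP replicate 1 lay within the DMSO range, and without it 14 of the 21 pairs did not overlap. The *nd1* count was 7.07%, 16.1%, 6.51% and 12.2% of that at the *nd4* place in DMSO replicates 1 to 4, and 6.00%, 0.0209%, 0.0312% and 0.0301% in TPhP replicates 1 to 4. TPhP replicate 1 thus lay next to the lowest DMSO library, and the other TPhP libraries were far below.

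Across the 9 pairs within a set, the differences in mean log2 ratio were between −0.86 and 0.36. The *nd2* count was 55.6% to 67.4% of the *nd1* count with DMSO and 67.6%, 56.7% and 39.0% of it in TPhP replicates 1 to 3. TPhP replicate 4 was lowest, with 16 counts of *nd2* against 47 of *nd1*, and the ratios in TPhP replicates 2 to 4 rest on 16 or 17 counts of *nd2*. The *nd3* count was 8.04% to 11.5% of the *nd1* count with DMSO, 9.20% in TPhP replicate 1, and 6.67%, 14.6% and 27.7% in TPhP replicates 2 to 4, where *nd3* had 2, 6 and 13 counts. The log2 ratio of *nd2* over *nd3* was 2.48 to 2.84 with DMSO and 2.88, 2.81, 1.34 and 0.29 in TPhP replicates 1 to 4. The 3 ratios within this set thus spread more among the TPhP libraries than among the DMSO libraries, and all 3 had overlapping groups. The *nd5* place held 46.1% to 53.8% of the *nd4* place with DMSO and 45.3% to 54.9% with TPhP (exact permutation p = 0.686, 0.750 after adjustment). The log2 ratio of the *nd5* place over the *nd6* place, which lie on opposite strands, differed by −0.01 between TPhP and DMSO (exact permutation p = 0.943). Sense and antisense reads cannot be told apart at these places, so this ratio does not compare the strands. The *nd6* count as a share of the *nd5* count was 0.541% to 0.661% under DMSO and 0.517% to 0.677% under TPhP.

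The single pair within a set that did not overlap was that of the adjoining *nd4l* and *nd4* places, whose reading frames share bases. The *nd4l* place held 7.20%, 7.26%, 7.06% and 6.94% of the count of the *nd4* place in DMSO replicates 1 to 4, and 6.44%, 6.31%, 6.51% and 6.42% in TPhP replicates 1 to 4. Here TPhP replicate 1 lay among the other TPhP libraries. The log2 ratio was −3.81 ± 0.03 under DMSO and −3.96 ± 0.02 under TPhP (SD, n = 4 each, difference −0.15, two-sided exact permutation p = 0.0286, 0.0857 after adjustment over the 21 pairs).

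**Figure D3:**
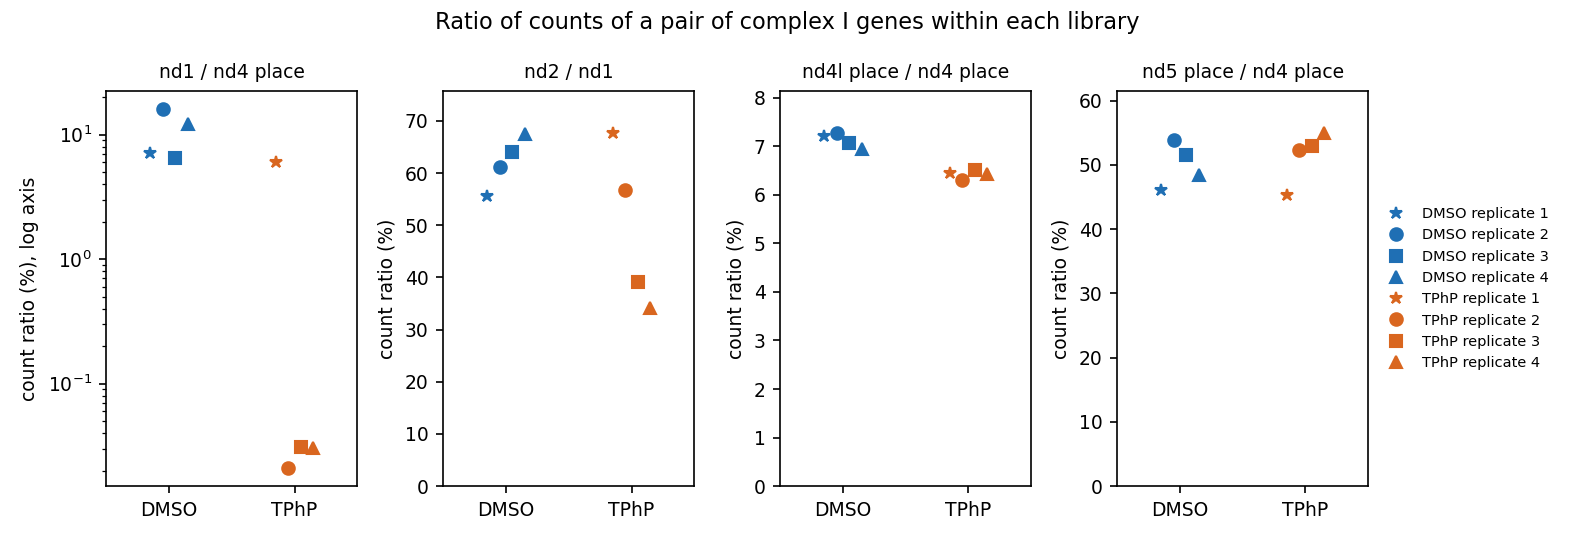
Ratio of the counts of 2 complex I genes within each library, in percent, for 4 pairs of genes (the first panel on a log axis, the others from 0). *Nd1* over the *nd4* place is 0.0209% to 0.0312% in TPhP replicates 2 to 4, and the *nd4l* place over the *nd4* place is 6.94% to 7.26% with DMSO and 6.31% to 6.51% with TPhP.

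The sets also varied apart among the DMSO libraries. With TMM scaling, DMSO replicate 3 was the lowest and DMSO replicate 2 the highest in *nd1*, *nd2* and *nd3*, with a highest over lowest CPM of 2.23, 2.13 and 1.91. With library sizes alone DMSO replicate 3 stayed lowest, but DMSO replicate 4 was above DMSO replicate 2 in *nd1* (375 against 364 CPM) and *nd2* (253 against 223 CPM). From the *nd4l* place to the *nd6* place DMSO replicate 1 was the highest, with ratios of highest over lowest between 1.41 and 1.74. Against *cox1*, the cytochrome c oxidase subunit gene that lies between *nd2* and *nd3*, the DMSO log2 ratio of counts was −4.91 ± 0.07 (SD, n = 4) for *nd1*, −5.61 ± 0.13 (SD, n = 4) for *nd2* and −8.29 ± 0.16 (SD, n = 4) for *nd3*. The same ratio had an SD of 0.52 to 0.61 for the 4 other genes. *Cox1* itself was lower in every TPhP library than in every DMSO library, at 5272, 1396, 1467 and 1648 CPM in TPhP replicates 1 to 4 against 5998 to 12641 CPM with DMSO (log2 fold change −1.99, not called, edgeR adjusted p = 0.164), so that a ratio to *cox1* lies above the change of the gene's own level. *Nd1*, *nd2* and *nd3* were lower relative to *cox1* in every TPhP library than in every DMSO library. The differences in mean log2 ratio were −4.65, −5.02 and −4.16 (two-sided exact permutation p = 0.0286 each, 0.0667 after adjustment over 7 ratios). For *nd3* these p-values are descriptions, since it needed the DMSO libraries to pass the filter on low counts. The TPhP SDs were 2.94, 3.26 and 2.72 (n = 4 each). In TPhP replicate 1 the margins were small. There *nd2* was at −5.74 against −5.71 in DMSO replicate 1, and *nd3* at −8.61 against −8.50. The share of all genes that were lower relative to *cox1* in this way was not computed. For the 4 other genes the mean log2 ratio to *cox1* was higher by 1.73 to 1.93 with TPhP, beside log2 fold changes of −0.48 to −0.25 in their own levels, and the groups overlapped (exact permutation p = 0.0857 after adjustment).

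Per kilobase of RefSeq gene length, the levels with DMSO were in the order *nd4* place (2353 ± 617 CPM per kilobase), *nd5* place (873 ± 171), *nd4l* place (779 ± 210), *nd1* (332 ± 102), *nd2* (191 ± 62.0), *nd3* (88.1 ± 25.4) and *nd6* place (17.9 ± 2.65), each with SD and n = 4. The ranges of the neighbours *nd5* and *nd4l*, *nd1* and *nd2*, and *nd2* and *nd3* overlapped, although within each of the 4 DMSO libraries the order of every neighbouring pair was the same. With TPhP the first 3 kept their order, at 1866 ± 170 (*nd4* place), 722 ± 112 (*nd5* place) and 557 ± 49.8 (*nd4l* place) CPM per kilobase (SD, n = 4). *Nd1*, *nd2* and *nd3* were above the *nd6* place (13.2 to 18.1 CPM per kilobase) in TPhP replicate 1, at 150, 93.9 and 38.5, and below it in TPhP replicates 2 to 4, where they were between 0.101 and 0.902.

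On the map, *nd1*, *nd2* and *nd3* all lie before the 4 other genes. With TMM scaling, every ribosomal RNA and protein place up to and including *nd3* was lower in all TPhP libraries than in all DMSO libraries. The margin was small at the large ribosomal RNA place, with 118.7 CPM in TPhP replicate 1 and 119.6 CPM in the lowest DMSO library. The depth of the difference was uneven along that stretch. Genes outside complex I were also far lower, as *cox2*, with 5.56 to 6.71 CPM in TPhP replicates 2 to 4 against 1721 to 4059 CPM with DMSO. *Nd3* is parted from *cox3* by 69 bases and from *nd4l* by 69 bases, room for a transfer RNA on either side. At the *cox3* place, TPhP replicates 2 to 4 had 7553, 7806 and 9019 CPM against 10681 to 16138 CPM with DMSO, and at the *nd4l* place 160, 157 and 188 CPM against 187 to 324 CPM. Both neighbours of *nd3* thus stayed within or close under the DMSO range in the libraries where *nd3* was at 0.243 CPM or lower. After *nd3*, the *nd4l*, *nd4*, *nd5*, *nd6* and *cytb* places all had overlapping groups with TMM scaling. At the *nd4l* place the overlap was 187.523 CPM with TPhP against 187.485 CPM with DMSO, and RLE factors gave none. Among these places only *nd6* lies on the light strand. Sense and antisense reads cannot be told apart there, so the strands cannot be compared.

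**Figure D4:**
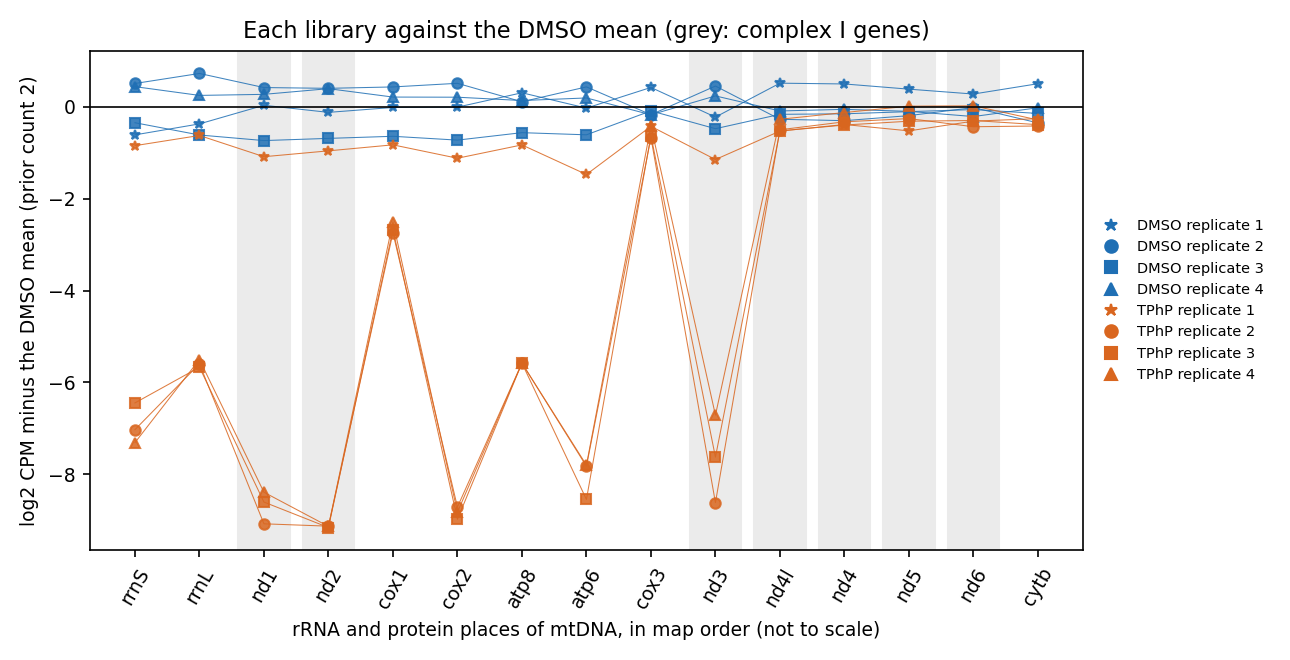
Log2 CPM (prior count 2) of each library minus the DMSO mean, for the 15 ribosomal RNA and protein places of mtDNA in map order, with complex I genes in grey. TPhP replicates 2 to 4 dip at *nd1*, *nd2* and *nd3* by more than 6 log2 units, and also at places outside complex I, such as *cox2* (−8.99 to −8.72). They return to within 1 unit at the *cox3* place and from the *nd4l* place on. TPhP replicate 1 (orange star) is nowhere more than 1.47 units below the DMSO mean.

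The genes outside the mtDNA block whose pattern was most like the mean log2 CPM of the 7 members were found by Pearson's r over the 8 libraries, as a description in which TPhP replicates 2 to 4 form a cluster of their own. The closest 2 were ENSORLG00000005111 (r = 0.992) and ENSORLG00000015624 (r = 0.992), and the most opposite were ENSORLG00000001752 (r = −0.995) and ENSORLG00000014724 (r = −0.992). No names are paired with these identifiers here. Their range was small beside that of *nd1*, since ENSORLG00000005111 had 25.2 to 27.7 CPM with DMSO and 25.8, 18.5, 17.8 and 18.7 CPM with TPhP. ENSORLG00000014724 had 2.30 to 2.66 CPM with DMSO and 2.76, 8.49, 6.81 and 6.48 CPM with TPhP. TPhP replicate 1 lay within the DMSO range in ENSORLG00000005111 and just above it in ENSORLG00000014724. In *nd1*, *nd2* and *nd3* it lay below every DMSO library, where the DMSO mean was 2.21, 2.03 and 2.29 times its level. The nuclear genes of complex I, its assembly factors and the factors of mtDNA transcription were not analysed here, since no table used here pairs their names with these identifiers.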

How the data were processed

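Per the study's methods, the authors removed poor-quality bases, used STAR to align the reads to ASM223467v1, and counted with htseq-count. The deposited values are raw counts, without normalization, of reads that mapped to a single place. Reads that map equally well to several places, such as mtDNA and a nuclear copy of it, are not part of such counts and were not analysed here. The strand option and annotation release of the counting are not given in the sources used here. Library preparation kept the strand.

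Here, all 8 columns were used. The default filter of edgeR 4.0.16 (R 4.3.3) kept 15893 of 18064 genes, all 7 members among them. After TMM scaling, treatment alone was fitted by the quasi-likelihood test, and a call needed an adjusted p under 0.05 together with a change of over 1.5-fold. For single genes and for log2 ratios (prior count 0.5), exact permutation tests (two-sided) were run in SciPy 1.17.1. The edgeR step was tested on simulated counts. Alternatives were DESeq2 1.42.0, other scalings, filters and thresholds, the replicate number as a block and each library left out in turn. All 7 members were named, with *cox1* as comparator, and the 2 genes outside the mtDNA block most like their mean and the 2 most opposite. The members and lists were chosen with earlier results of these data known. Gene positions and lengths came from the RefSeq table of ASM223467v1, matched by name.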

Additional observations from a re-analysis of the deposited data

Results flagged for a closer look

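In 4 of 14 groups of 4 values (7 genes, DMSO and TPhP, log2 CPM) one library lay far from the others, where chance flags about 1 in 20 groups (0.70 of 14). As a share of the group's whole range, the gap of TPhP replicate 1 to the nearest TPhP library was 0.914 for *nd1* and 0.996 for *nd2*. For *nd3* the same gap was 0.745, under Dixon's 95% critical value for 4 samples, and TPhP replicates 2 to 4 had 2 to 13 counts. The gap of TPhP replicate 4 above the other TPhP libraries was 0.890 at the *nd4l* place, at 188 CPM against 157 to 160. The gap of DMSO replicate 1 above the other DMSO libraries was 0.839 at the *nd5* place, at 2072 CPM against 1390 to 1482. The genes share their libraries, so these groups are not independent of each other.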

How the results depend on the processing

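Over all genes, edgeR called 0 genes with all 8 libraries and under the other scalings, filters and thresholds, while DESeq2 called 618. The fits that each left out a library gave 0 to 1712 genes and 0 to 3 members. Leaving out TPhP replicate 1 gave the high ends, 1712 genes and 3 members (*nd1*, *nd2* and *nd3*), and leaving out DMSO replicate 4 gave 4 genes and 0 members. DESeq2 without TPhP replicate 1 called 2304 genes and 3 members. Members whose groups did not overlap numbered 3, and 3 to 7 with a library left out, all 7 without TPhP replicate 4 (4.83% of all genes then had every TPhP library lower), 4 without DMSO replicate 2 (5.17% of all genes) and 4 with RLE factors. Pairs of members with ratios apart numbered 7, and 7 to 14 with a library left out, with no share over all gene pairs computed. *Nd3* is part of these counts of members and pairs only as a description, given how it passed the filter. With library sizes only, the log2 fold change turned to 0.019 (*nd5* place) and 0.031 (*nd6* place). For these changes the cause was not tested. With the replicate number as a block, edgeR called 0 genes and 0 members, at log2 fold changes of −7.62 (*nd1*), −8.07 (*nd2*) and −6.13 (*nd3*) with adjusted p-values of 0.247 to 0.252, and 10 of 21 ratios differed one way in all 4 same-numbered pairs (smallest exact p 0.125). The deviations of same-numbered libraries correlated at 0.07, 0.21, 0.02 and −0.25, so the numbers were not taken to pair the samples. Over the alternatives for single members, 103 values kept their direction and side of the threshold, 6 passed the threshold and 2 turned. At least 10 counts in every library left *nd3* out. Depth limits *nd1*, *nd2* and *nd3* in TPhP replicates 2 to 4, where they had 2 to 47 counts.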
